A study of Mus musculus with 56 samples.

Results

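The genes described here are the lipid-sensing nuclear receptors Pparg, Ppard, Nr1h2 and Nr1h3, their shared partner Rxra, the cholesterol efflux transporters Abca1 and Abcg1, and Mylip. Their regulatory regions were followed by chromatin immunoprecipitation and sequencing (ChIP-seq) in mouse bone marrow-derived macrophages (BMDMs) treated with interleukin 4 (IL-4), alone or before lipopolysaccharide (LPS). Members were all peaks whose annotated gene name was 1 of these 8 genes, and they came to 2216 of the 1610519 peaks in 56 lists, or 15 to 89 peaks in a list. By gene, the peaks numbered 608 for Pparg, 464 for Abca1, 319 for Rxra, 305 for Abcg1, 248 for Mylip, 151 for Ppard, 63 for Nr1h3 and 58 for Nr1h2. A peak carries the name of the gene with the nearest transcription start site, which need not be the gene it acts on.

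PPARγ (Pparg) and PPARδ (Ppard) bind fatty acids and their derivatives, whereas LXRβ (Nr1h2) and LXRα (Nr1h3) bind oxysterols, and each pairs with RXRα (Rxra) on DNA. When sterol builds up in a macrophage, the LXR/RXR pairs switch on Abca1 and Abcg1, which load cholesterol onto lipoprotein particles, and Mylip (IDOL), a ubiquitin ligase that marks the LDL receptor for degradation. IL-4 acts through STAT6 and raises Pparg in macrophages, and LPS acts through Toll-like receptor 4 and NF-κB, of which p65 is a subunit.

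All cells came from wild-type C57BL/6 mice aged 8-12 weeks, were grown from bone marrow for 6 days with L929 supernatant (a source of M-CSF), and were double cross-linked with DSG and formaldehyde. In the first experiment, cells were left untreated or given IL-4 at 20 ng/ml for 1 hr, with 2 samples of each for 8 antibodies: RNA polymerase II with its tail phosphorylated at serine 5 (RNAPII-pS5, the initiating form) or serine 2 (RNAPII-pS2, the elongating form), the active chromatin mark H3K27Ac, the macrophage factor PU.1, the acetyltransferase p300 and the deacetylases HDAC1, HDAC2 and HDAC3. In the second, RNAPII-pS5, RNAPII-pS2 and p65 were followed in 4 groups of 2 samples: no treatment (ctrl/ctrl), IL-4 at 20 ng/ml for 24 hr (IL-4 PT/ctrl), LPS at 100 ng/ml for 1 hr (ctrl/LPS) and the IL-4 pretreatment followed by LPS (IL-4 PT/LPS). No receptor ligand or knockout entered these samples, and the study describes its ChIP-seq data as coming from 2 independent biological replicates.

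The lists held 8440 to 71027 peaks, and since the reads were not used here, this number stands in for depth, which is otherwise unknown. For H3K27Ac the value of a peak is a HOMER normalised tag signal over a region of about 1000 bp. For the other antibodies it is a MACS2 peak score on a −log10 scale, which grows with depth, so a log2 change below is a change of the score and not a measure of how much protein was bound. Peaks of 1 antibody were merged into regions, regions were tested where at least 2 samples listed a peak, and a sample with no peak took the antibody's lowest score as a floor. A fold against a group with no peak therefore depends on that floor and is no bound, and such a group has no spread of its own, which applied to 85 of the 143 region calls made below; with the floor 4 times as high, 88 of the 143 were lost. Over these 143 calls, 82 were kept in every fit that left out 1 library and still tested the region. A region listed in only 2 samples was not tested without either of them, so its call could not be lost there.

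Several libraries stood apart or went against their labels. The p300 library of untreated replicate 1 had 44787 peaks with a median score of 11.04, against 66710 to 69360 peaks with medians of 18.18 to 19.23 in the other 3 p300 libraries, so p300 results are given with and without it. Peak names in the 4 RNAPII-pS2 files from 1 hr carry the opposite treatment to the labels; the labels were kept, and these are called the libraries labelled untreated or IL-4. Of 7 IL-4 response genes, 4 had lower RNAPII-pS2 scores in the libraries labelled IL-4 and none had higher ones. The largest log2 changes were −5.41 for Socs1, −5.31 for Cish and −4.35 for Edn1. By contrast, 6 of the 7 were higher in H3K27Ac, 5 in p300, 2 in RNAPII-pS5 and 2 in PU.1, with none lower. The labels give the HDAC3 and H3K27Ac antibodies the same catalogue number, whereas the study's antibody list has a different one for HDAC3. The HDAC3 values below are those of libraries labelled HDAC3, and which antibody was used was not tested. In the pretreatment experiment, p65 lists held 9556 to 11026 peaks without LPS and 26305 to 38955 with it, and RNAPII-pS5 lists 14476 and 15349 peaks in ctrl/LPS against 17826 to 22149 in the other groups. Of 7 macrophage markers, 5 had a RNAPII-pS5 peak in every list, with summed scores of 131.1 to 535.7, and Spi1 and Adgre1 had none in any list. Summed scores were 0 to 42.84 for B cell, 0 to 11.55 for neutrophil and 7.22 to 89.01 for T cell markers. Erythroid markers had 0 to 148.4 and dendritic cell markers 14.73 to 67.88. Some of these sums moved with the treatments, and their part in the results was not tested. Summed H3K27Ac of the 3 macrophage markers with a peak was at most 1555 before and 2566 and 2478 after 1 hr of IL-4. Spi1, Adgre1, Cd68 and Lyz2 had no H3K27Ac peak listed in any sample. That of 2 of 3 erythroid markers went from 441.7 and 430.2 to 1178 and 1146, with Hbb-bt at 0. The T cell sum went from 299.3 and 291.2 to 225.2 and 220.8, with Cd3e at 0, and the B cell sum was 0 in all 4 samples. In the pretreatment experiment the macrophage RNAPII-pS5 sum was 366.7 and 404.8 in ctrl/ctrl, 253 and 245.6 after pretreatment, 213.5 and 245.6 after LPS and 131.1 and 144.3 after both. B cell markers had no RNAPII-pS5 peak in ctrl/ctrl, 42.84 and 36.93 after pretreatment, 4.89 and 8.37 after LPS and 23.89 and 33.74 after both, with Pax5 at 0 throughout.

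Peaks of all antibodies that overlapped were joined into 132 elements, each named by its distance in kb from the start site that the annotation used (mm10). Of these, 56 held peaks of at least 4 antibodies, 27 of all 9, and 49 of a single antibody. p300 marked 90 elements, PU.1 81, p65 67, RNAPII-pS5 58, RNAPII-pS2 58, HDAC2 53, HDAC1 50, H3K27Ac 43 and HDAC3 41. Pparg had 37 elements from −53.9 to +58.3 kb, 14 of them with at least 4 antibodies; Pparg elements from chr6:115411506 on are counted from a second, downstream start site. Abca1 had 29 elements (13 with at least 4 antibodies) from −41.9 to +70.7 kb, Mylip 22 (6) from −164.6 to +52.9 kb, Rxra 18 (10) from −5.5 to +86.4 kb and Abcg1 13 (8) from −45.9 to +32.3 kb. Ppard had 10 (3), Nr1h3 had 2 (1), and Nr1h2 had 1 element, at its promoter.

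**Figure D1:**
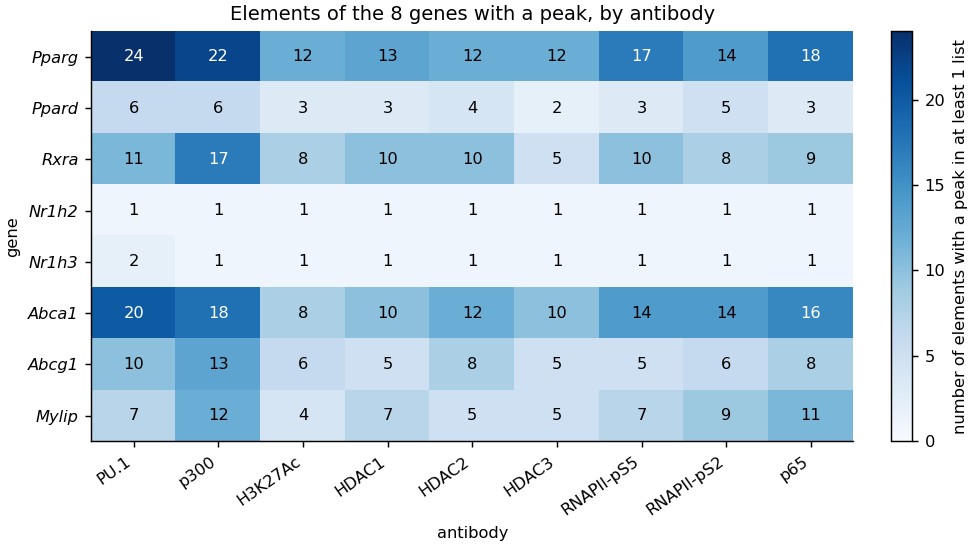
Number of elements with a peak in at least 1 list, by gene (rows) and antibody (columns), with the count written in each cell and shown by the colour. Pparg had the most elements for PU.1, with 24, and p300, with 22, whereas Nr1h2 had 1 element for each antibody.

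Some elements were listed nearly everywhere. The Abcg1 −19.1 kb element (chr17:31038108-31041148, between genes) had a peak in all 56 lists, the Nr1h2 promoter in 55, Pparg +14.3 kb in 54, Abca1 −27.7 kb and Pparg −17.5 kb in 52 each, Nr1h3 −1.8 kb in 50 and the Abca1 promoter in 49.

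Below are the central 200 bases of the 6 elements called in the most comparisons, with Pparg +19.7 kb added after its values were seen, as the element with the largest H3K27Ac change. They are read from the plus strand of GRCm38 (mm10), and capitals mark motif matches other than the single receptor core, except in Abca1 −27.7 kb, where no motif matched and capitals mark the pair of primers that the study used to amplify this element.
Abca1 −27.7 kb, chr4:53187475-53187674: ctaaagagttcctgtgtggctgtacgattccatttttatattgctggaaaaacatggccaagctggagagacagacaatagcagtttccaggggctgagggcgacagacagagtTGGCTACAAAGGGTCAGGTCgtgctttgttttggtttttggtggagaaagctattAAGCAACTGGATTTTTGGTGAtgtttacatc
Abca1 −21.9 kb, chr4:53181651-53181850: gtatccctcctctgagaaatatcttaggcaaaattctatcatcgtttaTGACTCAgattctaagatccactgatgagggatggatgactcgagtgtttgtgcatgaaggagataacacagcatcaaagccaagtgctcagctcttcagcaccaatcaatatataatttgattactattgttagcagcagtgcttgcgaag
Abcg1 −36.6 kb, chr17:31020989-31021188: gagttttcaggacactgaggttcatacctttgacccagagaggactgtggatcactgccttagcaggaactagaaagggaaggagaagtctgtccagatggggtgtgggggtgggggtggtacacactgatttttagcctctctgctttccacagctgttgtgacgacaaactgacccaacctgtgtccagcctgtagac
Abcg1 −19.1 kb, chr17:31038515-31038714: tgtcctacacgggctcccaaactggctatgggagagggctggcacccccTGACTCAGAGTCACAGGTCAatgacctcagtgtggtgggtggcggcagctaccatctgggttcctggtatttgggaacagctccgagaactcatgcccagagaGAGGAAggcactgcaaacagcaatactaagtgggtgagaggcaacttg
Abcg1 +1.2 kb, chr17:31058769-31058968: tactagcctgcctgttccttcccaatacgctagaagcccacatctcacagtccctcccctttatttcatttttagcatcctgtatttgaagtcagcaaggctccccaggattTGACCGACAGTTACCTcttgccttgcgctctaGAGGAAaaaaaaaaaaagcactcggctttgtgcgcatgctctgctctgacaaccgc
Pparg −39.7 kb, chr6:115321437-115321636: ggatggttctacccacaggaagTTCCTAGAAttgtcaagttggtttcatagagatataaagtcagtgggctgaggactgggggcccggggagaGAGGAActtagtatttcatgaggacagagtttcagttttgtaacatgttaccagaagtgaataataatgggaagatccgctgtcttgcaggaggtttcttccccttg
Pparg +19.7 kb, chr6:115380816-115381015: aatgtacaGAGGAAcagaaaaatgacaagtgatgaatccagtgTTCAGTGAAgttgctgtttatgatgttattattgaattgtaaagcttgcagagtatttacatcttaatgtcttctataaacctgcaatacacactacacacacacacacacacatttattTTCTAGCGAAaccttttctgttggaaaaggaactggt

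The motifs searched on both strands were a STAT site (TTC and GAA spaced by 3 or 4 bases), the receptor core AGGTCA alone, its direct repeats DR1 and DR4 with up to 2 mismatches, the PU.1 core GAGGAA, AP-1 (TGA and TCA spaced by 1 base) and NF-κB by name. The Pparg +19.7 kb window held a STAT match of each spacing and a PU.1 core, and Pparg −39.7 kb a STAT match spaced by 3 and a PU.1 core. Abca1 −21.9 kb held an AP-1 match, and Abcg1 −19.1 kb an AP-1 match adjoining a DR1 match, and a PU.1 core. The DR1 match of Abcg1 −19.1 kb ends in a single core, and another single core follows it on the minus strand, left in lower case. Abcg1 +1.2 kb held a DR4 match, the repeat that LXR/RXR is known to prefer, and a PU.1 core. Abcg1 −36.6 kb held none. The STAT match spaced by 3 lay in 12.5% of the 56 windows and in 8.35% of windows of the same length at all 81224 p300 regions; the other shares were 10.7% and 10.2% for the spacing of 4, 3.57% and 2.2% for DR4, 3.57% and 3.2% for DR1, 10.7% and 13.5% for the single core, 41.1% and 40.2% for PU.1, 17.9% and 17.2% for AP-1 and 0% and 1.47% for NF-κB. A match is a description of these letters and not a site of binding.

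The Abca1 promoter is shown because its acetylation fell after IL-4; it is known to hold an LXR response element. These are the 250 bases before the start site in RefSeq (GRCm38.p6), on the minus strand, chr4:53159896-53160145.
Abca1 promoter: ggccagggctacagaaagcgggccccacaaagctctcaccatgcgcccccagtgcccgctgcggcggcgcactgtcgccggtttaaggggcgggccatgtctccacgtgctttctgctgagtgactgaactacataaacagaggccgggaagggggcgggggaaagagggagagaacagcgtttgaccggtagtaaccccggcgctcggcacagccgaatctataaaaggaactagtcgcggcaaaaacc
No DR4 match with up to 2 mismatches was found in this window. The letters tgaccggtagtaaccc in it read as such a repeat on the other strand with more mismatches than that, which the cut-off leaves out. A window without a match can therefore still hold a response element. Over all 32851 RefSeq promoters, 3.02% held such a match, and it was found in 0 of the 11 promoters that RefSeq lists for 7 of the 8 genes; the single core AGGTCA lay in 27.3% of those 11 and in 16.3% of all.

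After 1 hr of IL-4, H3K27Ac fell at the Abca1 promoter and upstream elements and at elements of Pparg, Nr1h3, Ppard, Rxra and Mylip. It rose at 4 elements of Abcg1 and at 4 other elements inside or next to Pparg. Of the 40 regions tested, 8 were higher and 16 lower at an adjusted p of at most 0.05 (limma, Benjamini-Hochberg adjusted over all regions). Over all 28929 H3K27Ac regions, 20.5% were higher and 22.8% lower, and the median log2 change was −0.22 for the members and −0.02 for all regions. The members' share of lower regions was thus above that of all regions and their share of higher ones close to it, a difference that was not tested.

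Among the receptors, the largest rise was at Pparg +19.7 kb (chr6:115380246-115381292), in an intron of Pparg. No H3K27Ac peak was listed there in the untreated cells, and the signal was 276.5 and 297.2 in the 2 IL-4 samples (log2 change 5.0, SE 0.08, adjusted p = 7.1e-05, against the floor). Between genes at Pparg −11.4 kb there was again no peak without IL-4, and 41.7 and 39.6 with it (2.19, SE 0.10, adjusted p = 8.7e-04). At Pparg +47.7 kb, in an intron, the signal was 132 and 129.3 without and 198.3 and 178.8 with IL-4, with no overlap (0.58, SE 0.07, adjusted p = 0.0073). The region at the Pparg start site had 136.9 and 118.1, then 151.3 and 164.2 (0.36, SE 0.09, adjusted p = 0.043), a call lost without untreated replicate 2 or IL-4 replicate 2, within 0.25 to 0.46 over the fits that left out 1 library, and with no centring or quantile normalisation.

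The upstream part of the Pparg locus moved the other way. Pparg −17.5 kb, the strongest acetylated Pparg element of the untreated cells, had 418.4 and 388 before and 271.2 and 256.5 after IL-4 (−0.56, SE 0.06, adjusted p = 0.0050). Pparg −30.0 kb had 211.2 and 196.2, then 151.6 and 130.5 (−0.48, SE 0.10, adjusted p = 0.024), and Pparg −39.7 kb had 247.7 and 251.8, then 202.3 and 191.3 (−0.29, SE 0.05, adjusted p = 0.016). The groups did not overlap at any of the 3. Smaller falls at Pparg −53.9 kb (−0.27, adjusted p = 0.044) and Pparg +58.3 kb (−0.23, adjusted p = 0.034) were not stable: the first call was lost without any 1 of the 4 libraries (−0.34 to −0.22) and the second without untreated replicate 1 or IL-4 replicate 1 (−0.29 to −0.18). Pparg +14.3 kb, an intronic element with p300, PU.1 and all 3 HDACs, had no peak and 220.6 in the untreated samples and 296 and 301 after IL-4, and it was not called. A peak can thus be missing from 1 replicate where the other has a high signal, which bears on the rises from no peak given above. Summed over the gene, Pparg had 2031 and 2143 before and 2285 and 2310 after IL-4 (0.14, adjusted p = 0.082).

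The other receptors lost acetylation or did not pass the test. The single acetylated Nr1h3 element, at −1.8 kb (chr2:91194656-91197332), had 353.9 and 333 without and 213.9 and 251 with IL-4 (−0.51, SE 0.09, adjusted p = 0.017). Ppard +15 kb, in a Ppard intron, had 280.3 and 260.2, then 154 and 144.4 (−0.80, SE 0.06, adjusted p = 0.0027), whereas Ppard +0.8 kb near the start site had 148.6 and 137.1, then 149.3 and 143.4. Of the Rxra introns, the +22.6 kb element had 22.7 and 25 and then no peak (−1.36, SE 0.11, adjusted p = 0.0031), the +63.1 kb element 93.9 and 100.9, then 65.9 and 72.2 (−0.44, SE 0.08, adjusted p = 0.019), and the +14.0 kb element 197.7 and 198.4, then 161.9 and 159.3 (−0.25, SE 0.04, adjusted p = 0.015). None of these Rxra groups overlapped, but the +63.1 kb call was lost without untreated replicate 2 (−0.51 to −0.38 over the fits) and the +14.0 kb call without untreated or IL-4 replicate 2 (−0.27 to −0.23). The Rxra elements at +39.4, +51 and +81.6 kb did not pass, with 208.7 and 202.8, 59.2 and 49, and 203.8 and 175.6 before and 179.1 and 162.5, 43.4 and 41.7, and 160.6 and 160.7 after IL-4. The Nr1h2 promoter had 334.3 and 324.6, then 300 and 313.8, also not called.

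Of the transporters, the called elements of Abca1 lost acetylation and those of Abcg1 gained it. The Abca1 promoter region had 152.9 and 157.5 without and 90.7 and 95.5 with IL-4 (−0.68, SE 0.05, adjusted p = 0.0028). Upstream, Abca1 −21.9 kb (chr4:53181191-53182282) had 93.3 and 92.8, then 33.1 and 41.3 (−1.28, SE 0.13, adjusted p = 0.0047), and Abca1 −27.7 kb (chr4:53186725-53188370) 386.5 and 397.1, then 220.5 and 227.4. Abca1 −36.1 kb had 42.7 and 55.3, then 23.5 and 27.1 (−0.89, SE 0.18, adjusted p = 0.023). The groups did not overlap at any of these elements. Abca1 −41.9 kb had 22.7 and 16.6, then no peak and 11.5 (−0.89, SE 0.23, adjusted p = 0.043), and that call was lost without untreated or IL-4 replicate 1 (−1.11 to −0.67). Inside the gene, the introns at +26.3 and +10.1 kb did not pass, with 54.3 and 50.9, then 62.6 and 58.7, and 28.9 and 42.8, then 23.8 and 24.3. The summed Abca1 signal was 948.3 and 813.0 before and 454.2 and 485.8 after IL-4 (−0.90, SE 0.09, adjusted p = 0.0049), a call lost without intergenic peaks (−0.85, adjusted p = 0.078). The sum of untreated replicate 1 held 8 peaks, against 7 in replicate 2 and 6 and 7 after IL-4. It includes a peak at +39.3 kb listed in that library alone, which was not tested as a region.

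Abcg1 had the opposite direction at every called element. The intronic region at +1.2 kb (chr17:31057698-31061189) had 193.4 and 194.6 without and 316.9 and 344.4 with IL-4 (0.82, SE 0.05, adjusted p = 0.0016). Abcg1 −36.6 kb (chr17:31019561-31021646) had 51 and 44.7, then 96.7 and 93.4 (1.05, SE 0.09, adjusted p = 0.0035), and Abcg1 −19.1 kb had 281.5 and 268.1, then 340.1 and 341.2 (0.36, SE 0.04, adjusted p = 0.0054). At Abcg1 +31.2 kb no peak was listed without IL-4, against 28.5 and 30.5 with it (1.72, SE 0.11, adjusted p = 0.0015). The summed Abcg1 signal was 631.2 and 562.7, then 838.8 and 858.1 (0.52, SE 0.06, adjusted p = 0.0083). Both transporters are textbook LXR targets, and in these samples their called elements moved in opposite directions.

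For Mylip, the far upstream element at −122.9 kb had 152.3 and 156.2, then 119.5 and 122.2 (−0.30, SE 0.05, adjusted p = 0.013), a call lost without untreated replicate 2 (−0.33 to −0.29 over the fits). The intronic Mylip +2.2 kb had 254.8 and 246.8, then 201.3 and 234.7, and was not called. Summed over genes, 6 of the 8 passed, against 36.2% of all 13035 genes: Abcg1 was higher, and besides Abca1 the summed signal was lower for Nr1h3 (−0.56), Ppard (−0.44), Rxra (−0.29) and Mylip (−0.23). Of these, the Nr1h3 call was lost without either untreated library (−0.68 to −0.45), the Rxra call without either IL-4 library (−0.37 to −0.22) and the Mylip call without untreated 1, untreated 2 or IL-4 1 (−0.29 to −0.18). The Mylip call was also lost with the highest score in place of the sum (−0.21) and without intergenic peaks (−0.22).

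**Figure D2:**
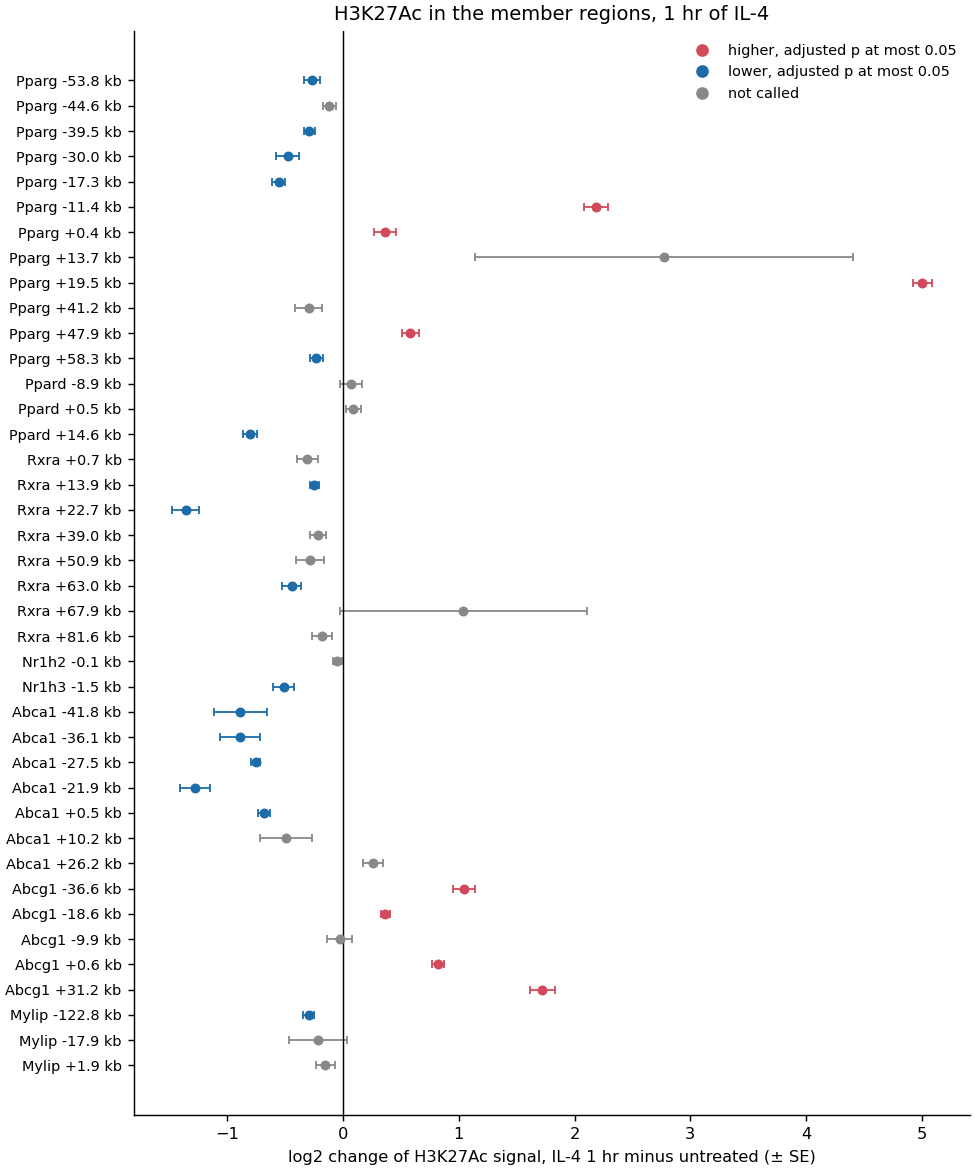
Log2 change of H3K27Ac signal (IL-4 1 hr minus untreated, ± SE of the limma fit, 2 samples a group) for each tested region of the 8 genes, labelled with the distance of its own centre from the start site; red regions were higher, blue ones lower and grey ones not called. The Abca1 regions from −41.8 to +0.5 kb lie below 0 and the 4 called Abcg1 regions above it, and Pparg +19.5 kb is farthest to the right at 5.0.

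p300, which acetylates H3K27, gave few calls, and its largest rises were in introns of Abcg1. Of 82 regions tested, 5 were higher and 3 lower, against 11.1% higher and 2.81% lower of all 67229, and the median log2 change was 0.11 for the members and 0.22 for all. All 8 calls were lost with no centring of the samples, a setting in which 0 regions of the whole p300 table passed and the median of all regions moved to 0.78. In the values without untreated replicate 1 below, the single remaining untreated library is assumed to vary like the IL-4 ones.

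At Abcg1 +13.4 kb (chr17:31070738-31071402) p300 had no peak in the untreated samples and scores of 92.8 and 83.2 after IL-4 (log2 change 5.70, SE 0.35, adjusted p = 0.013; 6.06 without untreated replicate 1). At Abcg1 +16.3 kb (chr17:31073591-31074343) there was no peak in untreated replicate 1, 5.78 in replicate 2, and 144.3 and 136.2 after IL-4 (5.57, SE 0.62, adjusted p = 0.023; 4.69 without). Abcg1 −36.6 kb had 16 and 82.7, then 177.3 and 174.2 (1.60, SE 0.28, adjusted p = 0.042; 1.17 without). The IL-4 samples were above both untreated samples at all 3, and these calls stood in every fit that left out a library and still tested the region. Abcg1 +13.4 kb, listed in the IL-4 samples alone, was not tested without either of them. Neither of the first 2 elements had H3K27Ac listed, while the third gained acetylation.

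At 4 of the other 5 p300 calls the untreated samples differed widely from each other. The intronic Abca1 +26.3 kb had 27.5 and 107.6, then 182.5 and 158.3 (0.97, SE 0.18, adjusted p = 0.047; 0.75 without untreated replicate 1), a call lost without IL-4 replicate 1 (0.75 to 1.13). Abca1 +52.9 kb had no peak, then 7.97 and 9.21 (2.34, SE 0.41, adjusted p = 0.043), and the call was lost without untreated replicate 1 (2.71, adjusted p = 0.069). Lower centred scores were called in 3 introns whose raw groups overlapped, namely Abca1 +10.1 kb with 32.1 and 99.0, then 42.3 and 30.6 (−1.32, adjusted p = 0.038; −1.37 without), Rxra +10.9 kb with 37.4 and 91.1, then 48.7 and 39.9 (−1.08, adjusted p = 0.0498; −0.96 without), and Rxra +37.3 kb with 21.6 and 73.7, then 18.2 and 25.3 (−1.57, adjusted p = 0.032; −1.70 without). Leaving out untreated replicate 1 raised the number of called member regions to 21, and leaving out untreated replicate 2 raised it to 44. Of the summed scores 1 of 8 passed, against 14.9% of 15708 genes: Nr1h3 had 78.5 and 189.8, then 117.9 and 129.2 (−0.84, SE 0.18, adjusted p = 0.037; −0.63 without untreated replicate 1). The raw Nr1h3 groups overlapped, and without intergenic peaks the direction turned and the call was lost (0.72, adjusted p = 0.68).

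Several elements with higher p300 scores in both IL-4 samples did not pass. Pparg +19.7 kb had p300 scores of 16.3 and 84.5, then 117.2 and 118.3 (1.00, adjusted p = 0.097). Mylip −31.4 kb (chr13:45358118-45358676), between genes, had no peak and 14.3, then 120.2 and 117.3 (4.67, SE 1.05, adjusted p = 0.063). Ppard +0.8 kb had 10.3 and 18.0, then 69.7 and 59.2 (1.57, adjusted p = 0.060), and Abcg1 +1.2 kb 10.8 and 24.1, then 47.7 and 44.2. The groups did not overlap at any of the 4.

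**Figure D3:**
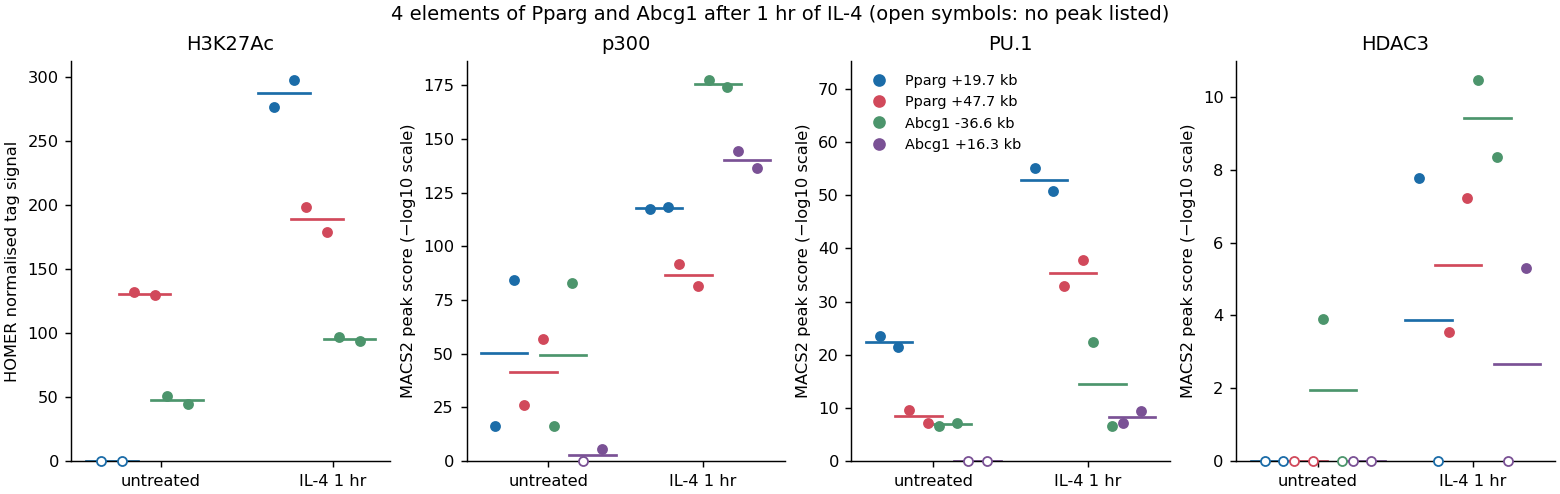
Values at 4 elements of Pparg and Abcg1 before and after 1 hr of IL-4: HOMER normalised tag signal for H3K27Ac and MACS2 peak score for p300, PU.1 and HDAC3, with 1 point a sample, bars for the mean of 2 samples and open symbols for a sample with no listed peak, counted as 0. The Pparg +19.7 kb element had no H3K27Ac peak before IL-4 and 276.5 and 297.2 with it, and the Abcg1 +16.3 kb element p300 scores of 144.3 and 136.2 after IL-4.

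For HDAC1, HDAC2, HDAC3, PU.1, RNAPII-pS5 and RNAPII-pS2 after 1 hr of IL-4, no member region was called of the 43, 42, 32, 64, 46 and 19 tested, and the share of all regions called was 0% for each of the 6 antibodies. At an unadjusted p of at most 0.05, the members numbered 4, 3, 9, 10, 12 and 7 by limma, in the same order, and the smallest adjusted p of a member was 0.169, 0.291, 0.101, 0.357, 0.108 and 0.109. The values of single elements are given as measured.

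PU.1 at Pparg +19.7 kb had scores of 23.4 and 21.5, then 55.1 and 50.8, and at Pparg +47.7 kb 9.64 and 7.21, then 32.9 and 37.8. At Abcg1 +13.4 kb and +16.3 kb PU.1 was listed only after IL-4, with 8.09 and 24.3, and 7.14 and 9.31. The IL-4 samples were above the untreated ones at these 4 elements, of which Pparg +19.7 and +47.7 kb also gained acetylation and both Abcg1 introns p300. At Nr1h3 −1.8 kb the order was reversed, with 34.2 and 21.2, then 12.0 and 13.6, as it was at Abca1 +37.8 kb, with 21.9 and 20.1, then 7.65 and 8.27. At Abca1 −27.7 kb PU.1 overlapped between groups, with 105.8 and 89.0, then 112.4 and 80.2. The largest PU.1 scores of Abca1 were in the intron at +26.3 kb, with 116.7 and 100.9, then 178.9 and 164.0. No member passed for the summed PU.1 score, where 0.556% of 15653 genes did.

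The deacetylases marked the same Abca1 and Pparg elements at lower scores. At Abca1 −27.7 kb HDAC1 had 36.9 and 26.2, then 11.5 and 15.7, HDAC3 36.7 and 27, then 25.6 and 16.8, and HDAC2 17.5 and 14.5, then 23.2 and 14.9. HDAC1 and HDAC3 did not overlap between groups there, and HDAC2 did. At the Pparg +14.3 kb intron HDAC3 had 19.6 and 11.4, then 36.9 and 45.4, and at Nr1h3 −1.8 kb HDAC2 had 12.8 and 9.37, then 3.92 and 5.27. The summed HDAC1 scores of Abca1 were 100.7 and 58.5, then 39.5 and 51, those of Abcg1 49.8 and 18.6, then 42.4 and 25.7, and those of Pparg 103.8 and 73.6, then 74.6 and 63.7. For the 3 deacetylases no member passed as a sum, and the share of all genes was 0% each. HDAC2 sums ran from 3.06 for Nr1h2 to 150.3 for Pparg, and HDAC3 sums from no peak for Nr1h2 in untreated replicate 2 to 174.4 for Abca1.

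RNAPII-pS5 overlapped between groups at the Nr1h2, Pparg and Rxra start sites and did not at those of Abca1 and Mylip. The Abca1 promoter had 34.1 and 21.8, then 21.3 and 16.8, the Nr1h2 promoter 107.9 and 75.4, then 98.2 and 82.3, and the Pparg start site 23.3 and 12.4, then 17.5 and 10.6. The Mylip promoter had 70.4 and 51.4, then 73.7 and 75.2, and the Rxra promoter 13.0 and 7.36, then 9.40 and 6.92. At Abca1 −21.9 kb RNAPII-pS5 was listed in the untreated samples only, with 14.7 and 7.28, and at Abca1 −27.7 kb it had 50.8 and 27, then 40.0 and 31.9. Abcg1 +1.2 kb had 29.1 and 16, then 41.3 and 33.5, and Abcg1 −36.6 kb 6.56 and 3.39, then 13.8 and 13.4, both without overlap. Summed over Nr1h3, RNAPII-pS5 was 48.8 and 26.0, then 18.5 and 20.4. None of the 8 sums passed, and 0.593% of 13481 genes did.

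RNAPII-pS2 had the fewest member peaks of the 1 hr experiment, 16 to 18 a list. In the libraries labelled untreated there was no peak at the Abca1 promoter or at Abca1 −27.7 kb, against 5.89 and 6.94, and 7.90 and 4.23, in those labelled IL-4. Abcg1 −19.1 kb had 17.1 and 17.0, then 5.72 and 9.26, and Abcg1 +1.2 kb 12.5 and 12.7, then 7.24 and 5.69, so that by the labels the transporters moved against the direction of their acetylation. Ppard, summed, had 25.2 and 30.8, then 48.9 and 56.2. No member sum passed, against 0.848% of 10617 genes, and the conflict between labels and peak names bears on the direction of each of these values; its part was not tested.

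In the pretreatment experiment, the comparisons share control samples, so each is given by its own values. LPS alone moved the 2 upstream Abca1 elements in opposite directions for all 3 antibodies. For RNAPII-pS5, 2 of 36 member regions were higher and 9 lower after LPS, against 11.4% and 19.4% of 27609 regions, and the median log2 change was −0.81 for the members and −0.13 for all. For RNAPII-pS2, 7 of 56 were higher and 9 lower (18.1% and 15.1% of 39261). For p65, 13 of 47 were higher and 6 lower (29.2% and 3.6% of 37564), with a median of 0.32 for the members and 0.72 for all. Without centring, 17 p65 regions were higher and 3 lower, with quantile normalisation 16 and 5, and the median of all p65 regions moved to 1.14 and 0.98, so the number and size of lower p65 calls depend on that scaling. The p65 changes with LPS given below are centred and lie below those of the raw scores, so falls look larger and rises smaller.

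Between genes at Abca1 −27.7 kb, RNAPII-pS5 had 32.8 and 40.5 in ctrl/ctrl, 4.83 and 5.67 after LPS, 14.0 and 13.5 after IL-4 pretreatment, and no peak after both. The log2 change with LPS was −2.62 (SE 0.22, adjusted p = 9.7e-04) and with LPS on pretreated cells against LPS alone −2.00 (SE 0.22, adjusted p = 0.0034). RNAPII-pS2 at this element had 50 and 49.0 in ctrl/ctrl, 18.3 and 7.54 after LPS (−2.27, SE 0.41, adjusted p = 0.0088), 26.2 and 29.9 after pretreatment, and 11.1 and 15.2 after both. p65 had 26.7 and 34.1, then 12.5 and 14.6 after LPS (−2.20, SE 0.19, adjusted p = 7.1e-04), 11.9 and 12.1 after pretreatment, and 16.8 and 19.4 after both. Every treated sample was below both ctrl/ctrl samples for each antibody. The fall with pretreatment alone was called for RNAPII-pS5 (−1.42, SE 0.22, adjusted p = 0.0093) but lost without ctrl/ctrl 2, IL-4 PT/ctrl 1 or IL-4 PT/ctrl 2 (−1.63 to −1.26), and for p65 (−1.13, SE 0.19, adjusted p = 0.031) but lost without any library other than ctrl/ctrl 1 (−1.36 to −1.01).

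Abca1 −21.9 kb gained with LPS. RNAPII-pS5 had no peak in ctrl/ctrl, 22.8 and 14.2 after LPS (3.79, SE 0.44, adjusted p = 0.0021), 6.14 and 3.28 after pretreatment and 5.72 and 7.57 after both. RNAPII-pS2 had 6.56 and 10.1, then 67.8 and 68.6 after LPS (2.87, SE 0.28, adjusted p = 9.4e-04), 35.8 and 28.9 after pretreatment (2.03, SE 0.28, adjusted p = 0.0043), and 54.1 and 47.3 after both. p65 was listed only with LPS, with 32.9 and 32.5 without and 26.1 and 19.9 with pretreatment (LPS change 4.14, SE 0.23, adjusted p = 2.8e-04). LPS raised RNAPII-pS2 less in pretreated cells (difference of the LPS changes −2.40, SE 0.39, adjusted p = 0.0093), a call lost without IL-4 PT/LPS 2, within −2.75 to −2.03. The same difference for RNAPII-pS5 (−3.23, SE 0.62, adjusted p = 0.019) was lost without any of 6 libraries, the exceptions being IL-4 PT/ctrl 2 and ctrl/LPS 2 (−3.69 to −2.75).

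**Figure D4:**
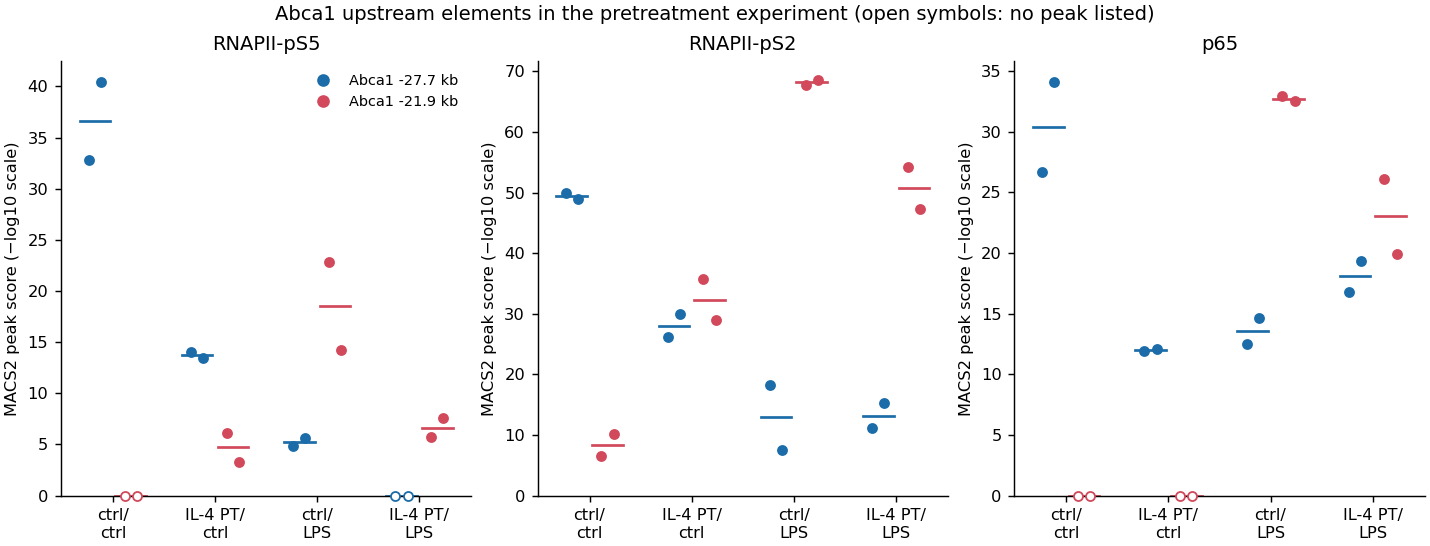
MACS2 peak scores of RNAPII-pS5, RNAPII-pS2 and p65 at the Abca1 elements −27.7 and −21.9 kb in the 4 groups, with 1 point a sample, bars for the mean of 2 samples and open symbols for a sample with no listed peak, counted as 0. After LPS alone the −27.7 kb element was lower and the −21.9 kb element higher than in ctrl/ctrl for each antibody, with RNAPII-pS2 scores of 67.8 and 68.6 at the latter.

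At the Abca1 promoter, RNAPII-pS2 had 22.4 and 24.8 in ctrl/ctrl and 13.8 and 13.8 after LPS (−0.96, SE 0.26, adjusted p = 0.039), a call lost with no centring and without any library but the 2 of IL-4 PT/ctrl (−1.12 to −0.88). RNAPII-pS5 there had 32.1 and 21.8, then 6.70 and 8.17 after LPS, 17.8 and 17.5 after pretreatment and 9.78 and no peak after both, and p65 40.4 and 47.0, 112.5 and 97.6 after LPS, 28.0 and 41.4 after pretreatment and 103.0 and 104.7 after both; neither was called. Inside the gene, RNAPII-pS2 at +4.3 kb had no peak in ctrl/ctrl and 15.8 and 10.3 after LPS (3.08, SE 0.38, adjusted p = 0.0021), 4.39 and 6.87 after pretreatment (2.10, adjusted p = 0.012) and 5.45 and 8.91 after both. The pretreatment call at +4.3 kb was lost without ctrl/ctrl 1, ctrl/ctrl 2 or IL-4 PT/ctrl 2 (1.89 to 2.39), and the lower LPS change in pretreated cells (−2.92, adjusted p = 0.014) without either ctrl/ctrl library (−3.28 to −2.54). RNAPII-pS5 at +2.1 kb was listed in ctrl/ctrl alone, with 5.98 and 5.0 (−1.89 with LPS or with pretreatment, SE 0.15).

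The other Abca1 calls were at low scores. p65 at −4.5 kb was listed in IL-4 PT/LPS alone, with 8.71 and 10.3 (2.08 against ctrl/LPS, SE 0.12, adjusted p = 3.2e-04), and at +51.5 kb likewise, with 6.67 and 4.90 (1.35, SE 0.18, adjusted p = 0.0038). RNAPII-pS5 at +39.3 kb had 4.55 and no peak, then 12.9 and 9.73 after LPS (2.30, adjusted p = 0.026), lost without either ctrl/LPS library (1.48 to 3.08). p65 at +37.8 kb had 12.2 and 21.8, then 12.0 and 10.8 (−1.56, adjusted p = 0.032), lost without ctrl/ctrl 2 or any of the 4 LPS-treated libraries (−2.04 to −1.21). p65 at +11.6 kb was listed in the LPS-treated groups and in no other, with 6.25 and 5.04 without and 2.93 and 8.16 with pretreatment (1.60, adjusted p = 0.049), lost without any library but the 2 of IL-4 PT/LPS (1.38 to 1.69). RNAPII-pS2 at −36.1 kb had 8.94 and 3.85 and no peak after pretreatment (−2.15, adjusted p = 0.036), lost without ctrl/ctrl 1 or any of the 4 pretreated libraries (−2.76 to −1.63). The differences of the LPS changes for p65 at −27.7 kb (1.28, adjusted p = 0.024) and +51.5 kb (1.35, adjusted p = 0.017) were each lost in 5 fits, the first without ctrl/LPS 1, ctrl/ctrl 2, IL-4 PT/ctrl 1 or either IL-4 PT/LPS library (1.13 to 1.48) and the second without either ctrl/ctrl library, IL-4 PT/ctrl 1 or either ctrl/LPS library (1.28 to 1.46).

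At Abcg1, the other transporter, the RNA polymerase calls came from IL-4 pretreatment. For pretreatment alone, 3 member regions of RNAPII-pS5 were higher and 3 lower (9.44% and 6.95% of all regions), with medians of 0.02 for the members and 0 for all, and for RNAPII-pS2 5 were higher and 9 lower (12.1% and 10.6%). All RNAPII-pS5 and RNAPII-pS2 regions of Abcg1 called within its −36.6 and +1.2 kb elements were higher, whereas called RNAPII-pS2 regions of its other elements, given below, went both ways. RNAPII-pS5 at −36.6 kb was listed in IL-4 PT/ctrl alone, with 4.62 and 6.09 (1.83, SE 0.18, adjusted p = 0.0016), and RNAPII-pS2 with 6.92 and 3.06 (1.85, adjusted p = 0.028), the latter lost without any library outside that group (1.81 to 1.87). At the intronic +1.2 kb element a RNAPII-pS5 region was listed in IL-4 PT/ctrl alone, with 5.86 and 5.74 (1.96, SE 0.15, adjusted p = 0.0012), and a RNAPII-pS2 region with 4.12 and 6.34 (2.00, SE 0.19, adjusted p = 0.0012). Neighbouring regions of that element, not called, were listed in more groups: RNAPII-pS2 had 7.23 and 8.68 in ctrl/ctrl, 17.6 and 13.2 after pretreatment, 7.23 and 5.08 after LPS and 8.70 and 7.59 after both. For these called regions other than RNAPII-pS2 at −36.6 kb, the difference of the LPS changes was of the same size with the opposite sign (adjusted p = 0.0044 to 0.0061). All groups but IL-4 PT/ctrl sat at the floor there, so this difference repeats the pretreatment change and is no separate result.

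At Abcg1 −19.1 kb, RNAPII-pS2 had 26.7 and 28.0 in ctrl/ctrl and 39.2 and 49.5 after pretreatment (0.74, SE 0.15, adjusted p = 0.018), and 42.7 and 43.8, and 57.5 and 45.3, with LPS; the call was lost without either ctrl/ctrl library or IL-4 PT/ctrl 2 (0.63 to 0.84). In the same element at −17.8 kb, RNAPII-pS2 had 37.4 and 19.2, then 9.74 and 10.1 after pretreatment (−1.39, adjusted p = 0.024), lost without either IL-4 PT/ctrl or either ctrl/LPS library (−1.85 to −0.98). p65 at −19.1 kb had no peak and 5.04 in ctrl/ctrl, 31.7 and 35.7 after LPS (2.94, SE 0.85, adjusted p = 0.049) and 53.5 and 57.7 after both, a call lost without any library but ctrl/ctrl 2 (1.63 to 4.25), and at −17.8 kb 15.1 and 13.8, then 50.5 and 47.9 after LPS (0.73, adjusted p = 0.023), lost without either ctrl/ctrl or either ctrl/LPS library (0.60 to 0.78). p65 at the +16.3 kb intron was listed in IL-4 PT/LPS alone, with 13.0 and 8.20 (2.21 against ctrl/LPS, SE 0.26, adjusted p = 0.0021), the element where p300 was called higher after 1 hr of IL-4. At +9.6 kb p65 had no peak and 4.36 after LPS and 8.35 and 17.2 after both (1.81, adjusted p = 0.047), lost without any library but ctrl/LPS 2 (1.19 to 2.35). RNAPII-pS2 at +17.1 kb had 10.3 and 7.29, then none after pretreatment (−2.71, adjusted p = 0.011), lost without ctrl/ctrl 1 or either IL-4 PT/ctrl library (−2.96 to −2.55).

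Among the receptors, Rxra lost RNAPII and p65 peaks at intronic elements after LPS. At +63.1 kb (chr2:27739640-27740697) p65 had 12.9 and 15.7 in ctrl/ctrl, no peak after LPS (−3.98, SE 0.46, adjusted p = 0.0018), 5.02 and 10.6 after pretreatment and 5.30 and 8.86 after both. At +81.6 kb (chr2:27758158-27759308) p65 had 6.02 and 9.45, then no peak (−3.07, SE 0.38, adjusted p = 0.0023), with 5.29 and 4.41 after both, and RNAPII-pS2 20.7 and 14.6, then no peak and 3.45 (−3.10, SE 0.46, adjusted p = 0.0043). Past the 3' end of the gene at +86.4 kb (chr2:27763353-27765706), RNAPII-pS2 had 9.27 and 6.93 in ctrl/ctrl, 12.4 and 14.7 after pretreatment and no peak with LPS (−2.60, SE 0.25, adjusted p = 8.9e-04), and RNAPII-pS5 8.96 and 9.50, 13.7 and 14.1, and no peak with LPS (−2.64, SE 0.23, adjusted p = 1.0e-03). These calls were kept with each library left out.

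Others in Rxra were lost in some of those fits. RNAPII-pS5 at +51 kb had 7.54 and 7.35, no peak after LPS (−2.33, adjusted p = 0.033) and 9.63 and 8.33 after both (2.59 against ctrl/LPS, adjusted p = 0.041), each lost without any library but the 2 of IL-4 PT/ctrl (−2.36 to −2.31, and 2.52 to 2.72). p65 at +51 kb had 17.8 and 16.9, then 12.5 and 5.12 after LPS (−2.16, adjusted p = 0.013), lost with no centring and without either ctrl/ctrl library (−2.80 to −1.51), and 19.8 and 21.4 after both. RNAPII-pS5 at +81.6 kb had 7.85 and 4.63, then none after LPS (−2.03, adjusted p = 0.029), lost without any library but the 2 of IL-4 PT/ctrl (−2.40 to −1.70), and at +63.1 kb 5.64 and 10.6, then none after pretreatment (−2.39, adjusted p = 0.044), lost without any library but the 2 of ctrl/LPS (−2.89 to −1.92). RNAPII-pS2 at +39.4 kb had 9.50 and 6.48, then none after pretreatment (−2.57, adjusted p = 0.0082) and no peak and 3.33 after LPS (−1.98, adjusted p = 0.016), the second lost without ctrl/ctrl 1 (between −2.55 and −1.37).

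Rxra also had regions that were listed after the double treatment alone. At the +16.7 kb intron (chr2:27693105-27694153), RNAPII-pS5 had 11.3 and 12.7 (3.0 against ctrl/LPS, SE 0.19, adjusted p = 0.0015) and RNAPII-pS2 6.61 and 7.47 (2.27, SE 0.15, adjusted p = 5.9e-04) in IL-4 PT/LPS and no peak in the other groups. At +10.9 kb p65 had 6.86 and 8.70 in the same samples only (1.79, SE 0.13, adjusted p = 4.5e-04). These were kept without each library that could be left out. RNAPII-pS2 at +38.3 kb, within the +39.4 kb element, had 4.78 and 3.02 (1.38, adjusted p = 0.0095), lost without either ctrl/LPS library (1.37 to 1.41). The Rxra promoter had 1 p65 peak in the whole experiment, of 3.36 in IL-4 PT/LPS replicate 1.

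**Figure D5:**
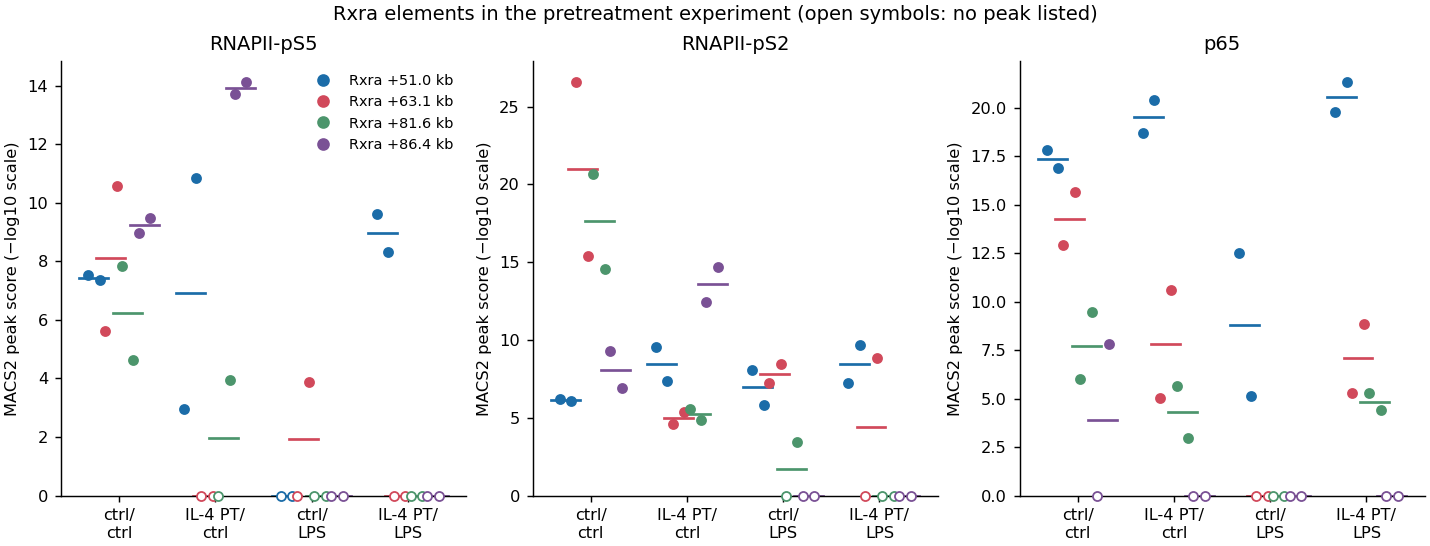
MACS2 peak scores of RNAPII-pS5, RNAPII-pS2 and p65 at 4 Rxra elements in the 4 groups, with 1 point a sample, bars for the mean of 2 samples and open symbols for a sample with no listed peak, counted as 0. After LPS alone, p65 was not listed at +63.1 or +81.6 kb and neither RNA polymerase form at +86.4 kb, whereas p65 at +51 kb was 19.8 and 21.4 after both treatments.

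With LPS, some Pparg elements gained p65 or elongating polymerase, and others lost elongating polymerase. The centred p65 sum of Pparg changed by 0.18 (SE 0.46) and was not called. p65 at the intronic +14.3 kb had 8.03 and 8.77 in ctrl/ctrl, 44.5 and 39.0 after LPS (1.26, SE 0.18, adjusted p = 0.0036), 8.08 and 9.22 after pretreatment and 36.8 and 38.1 after both. At −39.7 kb p65 had 4.35 and 2.89, then 22.5 and 23.2 after LPS (1.64, SE 0.26, adjusted p = 0.0057), and 35.3 and 33.9 after both. At −38.0 kb and −53.9 kb p65 was listed in the LPS-treated groups and in no other, with 18.5 and 11.4 (2.97, SE 0.44, adjusted p = 0.0046), and 12.2 and 8.47 (2.45, SE 0.32, adjusted p = 0.0028), in ctrl/LPS, and with 8.24 and 18.9, and 11.5 and 7.31, after both. RNAPII-pS2 too was listed in both LPS-treated groups and in no other at −38.0 kb, with 10.5 and 14.8 in ctrl/LPS (3.04, SE 0.28, adjusted p = 8.2e-04) and 15.2 and 14.4 after both. It was so at +47.7 kb, with 8.82 and 13.6 (2.86, SE 0.34, adjusted p = 0.0019) and then 17.5 and 12.1. RNAPII-pS2 at −44.1 kb fell, from 18.1 and 17.0 to 8.62 and 6.60 (−1.41, SE 0.20, adjusted p = 0.0038), and at the downstream +12.2 kb it was listed in ctrl/ctrl alone, with 8.03 and 9.25 (−2.70 with LPS or pretreatment, SE 0.18).

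Further Pparg calls did not hold in every fit. With LPS, RNAPII-pS2 at +14.3 kb had 46.2 and 29.5, then 71.2 and 71.1 (0.75, adjusted p = 0.041), lost without any library but ctrl/ctrl 1 (0.44 to 0.99), at −53.9 kb 3.77 and 2.93, then 11.3 and 10.4 (1.52, adjusted p = 0.014), lost without ctrl/ctrl 2 or either ctrl/LPS library (1.34 to 1.61), and a p65 region at +47.7 kb was listed in both LPS-treated groups and in no other, with 7.82 and 4.65 in ctrl/LPS (1.70, adjusted p = 0.014) and 15.9 and 10.8 after both, the call lost without either ctrl/ctrl library (1.26 to 2.01). RNAPII-pS5 at −39.7 kb had 4.42 and 7.28, none after LPS (−1.94, adjusted p = 0.012) and 8.67 and 6.41 after both (2.32, adjusted p = 0.012), both lost without either ctrl/LPS library and the second also without IL-4 PT/LPS 1 (−2.35 to −1.57, and 2.14 to 2.56). The difference of its LPS changes (2.41, adjusted p = 0.029) was lost without any library but ctrl/ctrl 1 (2.03 to 2.81). With pretreatment, RNAPII-pS5 beside the start site had no peak and 2.54, then 5.18 and 8.64 (1.76, adjusted p = 0.026), lost without any library but ctrl/ctrl 2 and IL-4 PT/ctrl 1 (1.32 to 2.16), and RNAPII-pS2 at −30.0 kb 23.9 and 13.6, then 6.58 and 4.0 (−1.76, adjusted p = 0.0499), lost without any 1 of the 8 libraries (−2.18 to −1.30). RNAPII-pS2 at −44.1 kb rose with both treatments against LPS, to 19.1 and 14.5 (1.20, adjusted p = 0.012), lost without ctrl/LPS 2 or IL-4 PT/LPS 1 (1.02 to 1.38), and p65 at +5.8 kb was listed in IL-4 PT/LPS alone, with 7.67 and 4.14 (1.33, adjusted p = 0.027), lost without either library of ctrl/ctrl or ctrl/LPS (1.26 to 1.44). The Pparg +19.7 kb element, where a H3K27Ac peak was listed only after 1 hr of IL-4, had no RNAPII-pS2 peak after 24 hr of it, against 5.13 and 7.32 in ctrl/ctrl.

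Ppard lost polymerase peaks with LPS at its −8.6 and +15 kb elements, whereas the raw RNAPII-pS2 scores beside its start site did not fall. At −8.6 kb, in an exon of the neighbouring gene Def6 (chr17:28223004-28224652), RNAPII-pS2 had 9.37 and 10.3 in ctrl/ctrl, 5.44 and 7.94 after pretreatment, and no peak with LPS (−2.89, SE 0.26, adjusted p = 7.3e-04), and RNAPII-pS5 11.6 and 7.96, 7.52 and 7.10, and no peak with LPS (−2.70, SE 0.27, adjusted p = 0.0014). At +0.8 kb, beside the start site, RNAPII-pS2 had 10.5 and 11.7, no peak after pretreatment (−3.06, SE 0.32, adjusted p = 0.0017), 12.1 and 18.8 after LPS and 4.68 and 5.80 after both. The last fall, against LPS alone (−1.48, adjusted p = 0.032), was lost without any library but ctrl/LPS 1 (−1.85 to −1.13). RNAPII-pS2 at +15 kb had 15.6 and 18.3, then none with LPS (−3.67, adjusted p = 0.011), lost without ctrl/ctrl 2 or either ctrl/LPS library (−3.87 to −3.56), and RNAPII-pS5 15.1 and 4.56, then none (−2.49, adjusted p = 0.019), lost without either ctrl/LPS library (−3.34 to −1.67). p65 at +0.8 kb was listed in ctrl/LPS alone, with 3.12 and 5.54 (1.16, adjusted p = 0.022; −1.16 for both treatments against LPS, adjusted p = 0.026), the first lost without either library of ctrl/ctrl or IL-4 PT/LPS and the second without either of IL-4 PT/LPS (1.05 to 1.24 in size). At −4.9 kb p65 was listed in IL-4 PT/LPS alone, with 3.73 and 3.77 (0.74, SE 0.08, adjusted p = 0.0015), a score close to the floor.

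The LXR genes had few calls. At the Nr1h2 promoter, RNAPII-pS2 had 25.0 and 16.3, then 9.83 and 5.35 after pretreatment (−1.43, SE 0.38, adjusted p = 0.049), lost without any library but IL-4 PT/ctrl 1 (−1.93 to −0.88), while RNAPII-pS5 had 11 and 13.6, 13.9 and 12.5, 10.5 and 10.1, and 21.3 and 15.9 in the order untreated, pretreated, LPS alone and both, and was not called. At Nr1h3 −1.8 kb, a RNAPII-pS2 region was listed in IL-4 PT/LPS alone, with 10.3 and 4.81 (2.27 against ctrl/LPS, SE 0.35, adjusted p = 0.0084), lost without either ctrl/LPS library (2.26 to 2.30). p65 at that element had raw scores of 17.7 and 21.7, 21.5 and 21.1, 38.4 and 36.2, and 41.8 and 66.8 in the same order of groups. These were higher with LPS in every sample, but the element was not called after centring. The centred p65 sum of Nr1h3 went the other way with LPS alone (−0.71, limma, adjusted p = 0.081).

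Mylip had p65 regions that were listed with LPS and were absent or low without it. p65 at −1.4 kb had 13.7 and 11.4 after LPS (2.75, SE 0.24, adjusted p = 7.3e-04) and 13.3 and 9.95 after both, at the intronic +7.8 kb 12.1 and 14.3 (2.82, SE 0.20, adjusted p = 4.1e-04) and 27.3 and 32.8, and at +23.5 kb 11 and 8.14 (2.35, SE 0.24, adjusted p = 0.0011) and 10.8 and 8.95, with no peak in either group without LPS. Their LPS scores did not overlap with those of unstimulated cells. The higher p65 score after both treatments at +7.8 kb (0.92, adjusted p = 0.021) was lost without either IL-4 PT/LPS library (0.80 to 1.03). At +29.4 kb p65 was listed in IL-4 PT/LPS alone, with 13.9 and 9.1 (2.33, SE 0.24, adjusted p = 0.0014), while RNAPII-pS2 there was listed with LPS, with 5.03 and 6.67 (1.94, SE 0.29, adjusted p = 0.0043), and with both, with 8.48 and 5.95. RNAPII-pS5 at −122.9 kb had 12.5 and 9.03, then 11.1 and 8.32 after pretreatment, and no peak with LPS (−2.84, SE 0.29, adjusted p = 0.0015). RNAPII-pS2 at −78.0 kb had 13.7 and 6.52 in ctrl/ctrl and no peak after pretreatment (−2.83, SE 0.38, adjusted p = 0.0040), against 7.22 and 5.81 after LPS and 12.7 and 10.1 after both (difference of the LPS changes 3.70, SE 0.54, adjusted p = 0.0061).

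The remaining Mylip calls were for p65 and were unstable. At +1.2 kb p65 had 6.09 and 5.5 in ctrl/ctrl, no peak after pretreatment or LPS (−2.68 for each, adjusted p = 0.048 and 0.012) and no peak and 6.94 after both. These 2 calls and the difference of the LPS changes (3.48, adjusted p = 0.022) were lost without centring, the LPS call also without ctrl/ctrl 1 or either ctrl/LPS library (−2.89 to −2.57), and the other 2 without any library but those of IL-4 PT/LPS (2.57 to 4.07 for the difference). At −101.1 kb p65 had 10.5 and 11.4 after both against 4.27 and no peak after LPS (1.68, adjusted p = 0.028), lost without any library but the 2 of ctrl/LPS (1.07 to 2.22), and at −164.6 kb 3.59 and 6.56 after both alone (1.12, adjusted p = 0.026), lost without ctrl/ctrl 1 or either ctrl/LPS library (1.05 to 1.23). The Mylip promoter itself was not called: RNAPII-pS5 had 18.4 and 12.3, 37.0 and 15.9, 16.5 and 20.4, and 18.2 and 20.5, and RNAPII-pS2 18.9 and 11.5, 10 and 13.1, 12.3 and 17.7, and 8.54 and 20.4, in the order untreated, pretreated, LPS alone and both.

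Counted over the members, the pretreated against the unpretreated LPS groups (IL-4 PT/LPS minus ctrl/LPS) gave 3 higher and 1 lower RNAPII-pS5 regions (9.31% and 5.44% of all), 4 higher and 1 lower RNAPII-pS2 regions (10.9% and 6.16%) and 11 higher and 1 lower p65 regions (23.5% and 5.36%). For p65 the median was 0.33 for the members and 0.36 for all regions, and the 12 member calls fell to 2 without IL-4 PT/LPS 1 and to 0 without IL-4 PT/LPS 2. In each of those fits 39 of the 47 regions were still tested. IL-4 pretreatment alone gave 0 higher and 2 lower p65 regions (3.48% and 2.35%). The LPS change differed with and without pretreatment for 6 RNAPII-pS5 regions, 3 each way (18.1% of all, either way), for 8 RNAPII-pS2 regions, 5 higher and 3 lower (20.7%), and for 8 p65 regions, all higher (23.5%), with a p65 median of 0.73 for the members and 0.38 for all. Most members' shares are near or below those of all regions.

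Summed by gene, LPS lowered RNAPII-pS5 on Ppard, from 26.7 and 16.8 to no peak and 3.87 (−2.91), and on Rxra, from 38.2 and 40.9 to no peak and 7.05 (−3.38), while 30.1% of 12477 genes passed. The Ppard call was lost without ctrl/ctrl 1 (−3.68 to −2.09 over the fits) and the Rxra call without either ctrl/ctrl library (−4.58 to −2.13) and without intergenic peaks (−2.99, adjusted p = 0.093). RNAPII-pS2 passed for 4 genes with LPS (32.4% of 13663): Rxra fell from 91.7 and 61.6 to 33.5 and 32.4 (−1.42, kept with each library left out), and Mylip from 76.1 and 61.8 to 49.4 and 46.1 (−0.75), while Pparg rose from 164.9 and 126.2 to 233.2 and 228.7 (0.46) and Abca1 from 138.8 and 140.9 to 202.7 and 201.0 (0.31). Leaving out either library of ctrl/ctrl or ctrl/LPS ended the Mylip call (−0.85 to −0.65) and the Abca1 call, the latter also without either of IL-4 PT/LPS (0.24 to 0.36), and the Pparg call ended without ctrl/ctrl 2 or either ctrl/LPS library (0.31 to 0.59). With the highest score in place of the sum, the calls of Rxra (−0.71, adjusted p = 0.16), Mylip (−0.26) and Abca1 (0.25) were lost. Without intergenic peaks those of Mylip (−0.03) and Abca1 (0.52) were lost. p65 passed for Rxra alone, from 36.8 and 49.9 to 18.0 and 8.81 (−3.41, SE 0.39, adjusted p = 0.0024, kept with each library left out), against 30.7% of 12312 genes. The −3.41 is a centred value, and the raw Rxra scores fell by less. Before centring, the summed p65 scores of Abca1 were 110.0 and 130.3 in ctrl/ctrl and 278.0 and 262.8 after LPS. Those of Mylip were 8.25 and 11.5, then 53.2 and 55.9, and those of Abcg1 15.1 and 24.3, then 84.3 and 88.0. None of the 3 was called. Their centred changes were −0.46 for Abca1, against its raw direction, 0.85 for Mylip and 0.53 for Abcg1.

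With pretreatment alone, RNAPII-pS2 passed for Ppard, from 40.4 and 47.3 to 9.73 and 14.2 (−1.83), and Rxra, to 42.0 and 42.0 (−0.77), against 20.2% of genes; the first was lost without any library but the 2 of IL-4 PT/LPS (−2.01 to −1.63) and the second without any but ctrl/ctrl 2 (−1.02 to −0.54). Both were lost with the highest score (−1.29 and −0.51), Ppard also without intergenic peaks and Rxra with the replicate block (−0.77, adjusted p = 0.059). RNAPII-pS5 passed for 0 members (9.28% of genes; Abcg1 had 32.7 and 32.2, then 81.2 and 59.5), as did p65 (9.8%). Against LPS alone, LPS on pretreated cells gave 1 RNAPII-pS5 call, Pparg, from 66.2 and 70.8 to 47.1 and 26.6 (−1.24), lost without any library but IL-4 PT/LPS 1 (−1.65 to −0.81), with the highest score (−0.38) and without intergenic peaks (−1.08), against 13.5% of genes, and 0 for RNAPII-pS2 (9.95%) and p65 (9.08%). The difference of the LPS changes was called for 0 members as sums, against 6.22%, 5.86% and 9.1% of genes for RNAPII-pS5, RNAPII-pS2 and p65.

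Related genes were counted on the same sums, and no list was tested against all genes. In these sums too a sample with no peak took the floor, and each peak counted for its nearest start site. Raw sums of these genes are not given, and their calls were not followed with libraries left out. How far the largest changes rest on the floor was not tested, so they are not measures of fold. Of all genes, either way, 36.2% passed for H3K27Ac and 14.9% for p300. Of 11 other LXR targets with H3K27Ac peaks, 2 were higher and 0 lower after 1 hr of IL-4 (Pltp 6.23, a phospholipid transfer protein, and Abcg8 1.99), and of 13 with p300 peaks 3 higher and 0 lower (Abcg5 5.0, Abcg8 1.84, Scd2 0.89). Of 7 other PPAR targets, 0 were higher and 4 lower in H3K27Ac (Cd36 −4.32, the fatty acid and oxidised LDL receptor, Tgm2 −0.87 and Fabp4 −0.37 among them), and 0 of 8 passed for p300. Of 6 other receptors and partners, Ppargc1b (1.03) and Ncoa3 (0.25) were higher and Rxrb (−4.54) and Ncoa1 (−0.57) lower in H3K27Ac, and 0 of 8 passed for p300. Of 13 genes of cholesterol uptake, storage and synthesis, Ch25h (0.68) was higher and 4 were lower (Scarb1 −0.56, Msr1 −0.53, Npc2 −0.37 among them), and for p300 0 of 14 were higher and 1 lower (Insig1 −0.60). In none of these 4 lists did a gene pass for the other 6 antibodies.

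With LPS, 30.1%, 32.4% and 30.7% of all genes passed either way for RNAPII-pS5, RNAPII-pS2 and p65. The other LXR targets were 2 higher and 4 lower of 12 for RNAPII-pS5 (Apoc1 −3.71, Smpdl3a 3.28 and Abcg8 −2.54 the largest), 1 higher and 4 lower of 12 for RNAPII-pS2 (Apoc1 −3.33, Smpdl3a 3.29, Abcg8 −3.12) and 3 higher and 0 lower of 10 for p65 (Smpdl3a 5.16). The other PPAR targets were 2 higher and 0 lower of 7, 1 and 0 of 7, and 4 and 1 of 7 (Plin2 4.21), the other receptors 1 and 1 of 6 (Ppargc1b 3.39), 0 and 1 of 5, and 1 and 1 of 6 (Ppargc1b 4.99), and the cholesterol genes 2 and 1 of 14, 1 and 1 of 14, and 3 and 2 of 13, for the same antibodies. After pretreatment alone, the shares of all genes passing either way were 9.28%, 20.2% and 9.8% for RNAPII-pS5, RNAPII-pS2 and p65. Of 7 PPAR targets, 2 were higher for RNAPII-pS5 (Fabp4 3.89 and Angptl4 1.91), 3 for RNAPII-pS2 (Fabp4 3.45) and 2 for p65, with 0 lower for each. Of the LXR targets, 3 of 12 were higher for RNAPII-pS5 (Scd2 2.35, Scd1 2.21 and Fasn 1.26), 2 of 12 for RNAPII-pS2 and 1 of 10 for p65, with 0 lower, the last 2 shares being near or below that of all genes. The lipid-binding protein gene Fabp4 is a known PPARγ target. With LPS on pretreated against unpretreated cells, PPAR targets were 2 higher and 1 lower of 7 for RNAPII-pS5 (Fabp4 3.20, Angptl4 2.52, Cd36 −0.82; 13.5% of all genes), and LXR targets 3 higher and 0 lower of 12 for RNAPII-pS2 (Abcg8 1.97; 9.95% of all genes). LPS check genes were higher for 5 of 6 in RNAPII-pS5 and 6 of 6 in RNAPII-pS2. For p65 3 were higher and 2 lower (Nfkbia −0.62 and Tnfaip3 −0.75, centred values).

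The summed RNAPII-pS5 score over the 8 samples of the pretreatment experiment was compared across 5014 genes, with no p. The patterns closest to that of Abca1 were those of Dmpk, Grap2 and Cdkn2aipnl (Pearson's r 0.99, 0.96 and 0.95), and those closest to Pparg included Med18 and Gpr183 (0.98 and 0.96); the points share their libraries and their depth.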

How the data were processed

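Peak lists of 56 ChIP-seq samples were used, 2 a group. Per the submitters' processing notes and the study's methods, the authors aligned reads to mm10 with BWA 0.7.10 and SAMtools 0.1.19, called peaks in each sample with MACS2 2.0.10 at a q of at most 0.01, or for H3K27Ac with HOMER 4.2, removed blacklisted regions and annotated each peak with HOMER. The deposited score of a MACS2 peak is a −log10 p or q value, which of the 2 was not given (up to 0.938% of scores in a list lay under 2, the score of the stated cut-off), and that of a H3K27Ac peak is the normalized tag signal of HOMER as deposited by the authors. The authors' own test of reads (DiffBind) could not be repeated on peak scores. Labels give LPS in ng/ml, and libraries were made with either of a pair of kits, not told apart here.

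From these values, peaks of an antibody overlapping by at least 1 bp were merged over the samples of an experiment, log2 scores were centred on regions listed in every sample, and limma 3.58.1 (R 4.3.3) was fitted over all regions, or over scores summed by gene name, with Benjamini-Hochberg adjustment and a threshold of 0.05. Exact permutation of 2 against 2 samples cannot go below p = 0.333. Scripts ran in Python 3.11.15 with NumPy 2.4.6, pandas 2.3.3 and Matplotlib 3.10.9, and the fits were tested on simulated data. Named regions are those at a start site (within 1000 bp), those called, and those with at least 4 antibodies; other gene lists give counts and at most 3 genes. For 1 gene named by pattern likeness, the result is not reported here. The members and lists were chosen with earlier results of these data known. Alternatives were another floor, scaling, filter, overlap (100 bp), only the upper 50% of peaks, unadjusted p, a replicate block and leaving out each library.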

Additional observations from a re-analysis of the deposited data

Results flagged for a closer look

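The LPS change differed with and without IL-4 pretreatment, by the interaction term of the limma fit, at 22 regions of the 8 genes. Each value is the log2 LPS change in pretreated cells minus that in unpretreated cells. Region names give the distance of the region's own centre, and all but Abca1 −21.9 kb for RNAPII-pS2 and Abca1 −27.4 kb for p65 had at least 1 group with no listed peak, so that these values depend on the floor. Where a region was listed in 1 group alone, the difference repeats that group's change against the floor and is no separate result. Abca1 +2.1 kb for RNAPII-pS5 and Pparg +12.1 kb for RNAPII-pS2, listed in ctrl/ctrl alone, are such regions.

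For RNAPII-pS5 the difference was 3.0 at Rxra +16.6 kb, 1.89 at Abca1 +2.1 kb and 2.41 at Pparg −39.8 kb, and it was −1.83 at Abcg1 −37.4 kb, −1.96 at Abcg1 +3.1 kb and −3.23 at Abca1 −21.8 kb. For RNAPII-pS2 it was 3.70 at Mylip −78.1 kb, 2.27 at Rxra +16.7 kb, 1.38 at Rxra +38.3 kb, 2.27 at Nr1h3 −0.7 kb and 2.70 at Pparg +12.1 kb, and −2.00 at Abcg1 +2.0 kb, −2.92 at Abca1 +4.3 kb and −2.40 at Abca1 −21.9 kb. For p65 it was 3.48 at Mylip +1.2 kb, 2.33 at Mylip +29.4 kb, 0.74 at Ppard −4.9 kb, 2.21 at Abcg1 +16.4 kb, 1.79 at Rxra +11 kb, 1.35 at Abca1 +51.5 kb, 2.08 at Abca1 −4.5 kb and 1.28 at Abca1 −27.4 kb. The calls kept in every fit that left out 1 library and still tested the region were 4 of 6, 4 of 8 and 5 of 8 for the 3 antibodies. Regions listed in 1 group alone were not tested without either library of that group.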

How the results depend on the processing

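Replicate numbers did not pair the samples: same-numbered samples' deviations correlated between −0.048 and 0.060, and with a replicate block 145 of 160 calls were kept. Of the called values, 1 reversed: the Nr1h3 p300 sum, 0.72 without intergenic peaks. The cause was not tested except where fewer regions or samples entered.

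Counts of called member regions changed by over 1.5 times as follows. With the floor 4 times as high they were 13 for H3K27Ac, 4 for p300, 5 (LPS) and 3 (IL-4 PT) for RNAPII-pS5, 8 (IL-4 PT), 2 (IL-4 PT/LPS against ctrl/LPS) and 4 (interaction) for RNAPII-pS2, and 11, 4 and 5 for p65 (LPS, IL-4 PT/LPS, interaction). With a peak required in every sample they were 1 for HDAC3, 3 and 1 for RNAPII-pS5 and RNAPII-pS2 at 1 hr, 16 for p300, 0 for each of the 4 RNAPII-pS5 comparisons, 7, 8, 1 and 1 for RNAPII-pS2 and 5, 1, 0 and 0 for p65 (LPS, IL-4 PT, IL-4 PT/LPS, interaction). With a peak in at least 1 sample they were 5 for p300 and 1 for p65 with IL-4 PT. With no centring they were 0 for p300, 1 for p65 with IL-4 PT and 13 for its interaction, and with quantile normalization 4, 1 and 13. With the upper 50% of peaks they were 5 for RNAPII-pS5 with LPS, 3 and 5 for RNAPII-pS2 (IL-4 PT/LPS, interaction), 15 for p300 and 9, 1, 6 and 3 for p65. The replicate block left 1 for p65 with IL-4 PT. At an unadjusted p of at most 0.05 they were 4, 3, 9 and 10 for HDAC1, HDAC2, HDAC3 and PU.1, 12 and 7 for RNAPII-pS5 and RNAPII-pS2 at 1 hr, 26 for p300, 11, 8 and 11 for RNAPII-pS5 (IL-4 PT, IL-4 PT/LPS, interaction), 26, 25, 9 and 16 for RNAPII-pS2 and 5 and 18 for p65 (IL-4 PT, interaction).

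Leaving out 1 library gave 19 to 23 for H3K27Ac, 0 to 4 for HDAC3 and PU.1, 1 to 3 and 1 for RNAPII-pS5 and RNAPII-pS2 at 1 hr, and 9 to 44 for p300. In the order LPS, IL-4 PT, IL-4 PT/LPS and interaction it gave 7 to 12, 3 to 6, 2 to 5 and 3 to 5 for RNAPII-pS5, 12 to 16, 8 to 13, 1 to 5 and 4 to 9 for RNAPII-pS2, and 12 to 18, 0 to 3, 0 to 13 and 1 to 10 for p65.

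Counts of called genes changed with the replicate block to 1 for RNAPII-pS2 at 1 hr, 1 and 3 for RNAPII-pS5 (IL-4 PT, IL-4 PT/LPS) and 1 for RNAPII-pS2 with IL-4 PT, and with the highest score in place of the sum to 2 for RNAPII-pS5 (IL-4 PT/LPS) and 1 and 1 for RNAPII-pS2 (LPS, IL-4 PT). Without intergenic peaks they were 1 and 0 for RNAPII-pS5 (LPS, IL-4 PT/LPS), 2, 1, 1 and 1 for RNAPII-pS2 and 1, 1 and 2 for p65 (IL-4 PT, IL-4 PT/LPS, interaction). Leaving out 1 library gave 0 to 1 for HDAC3, 0 to 2 for RNAPII-pS2 at 1 hr, 1 to 7 for p300, 0 to 2 and 0 to 1 for RNAPII-pS5 (LPS, IL-4 PT/LPS), 1 to 4, 0 to 1 and 0 to 1 for RNAPII-pS2 (LPS, IL-4 PT, IL-4 PT/LPS) and 1 to 3, 0 to 2, 0 to 1 and 0 to 1 for p65.

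Depth is unknown, and how far a region without a peak lay under the caller's threshold is not known. Among called values, 127 of 143 were kept with no centring and 128 with quantile normalization.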
